A study of Mus musculus with 12 samples.

Results

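The genotype by surgery interaction asks, gene by gene, whether the left ventricle of Prkca T497A mice answered pressure overload as the wild type ventricle did. It is the log2 change from sham to transverse aortic constriction (TAC) in T497A minus the same change in wild type. All 12 of 12 samples entered it, as 4 groups of 3: wild type sham, wild type TAC, T497A sham and T497A TAC. Of 55401 genes in the table, 15764 had enough counts to be tested. Mice were operated at 10 weeks of age and their hearts collected 5 weeks later, at 15 weeks. TAC narrows the aortic arch around a 27-gauge needle, and sham animals are operated without that constriction. The T497A animals carry alanine in place of a threonine of protein kinase C alpha, and the labels give neither their zygosity nor the number of founder lines.

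Protein kinase C alpha is the main conventional protein kinase C isoform of the cardiomyocyte and is activated by calcium and diacylglycerol downstream of Gq-coupled receptors. The threonine changed in T497A lies in its activation loop, where phosphorylation primes the newly made kinase for activity. Pressure overload drives cardiomyocyte growth, return of fetal genes such as the natriuretic peptides, matrix deposition by fibroblasts and a fall in genes of fatty acid use, repolarizing current and calcium cycling.

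Each sample held between 36862004 and 46898344 counts. No pair of replicates agreed within counting noise, with chi-square values per degree of freedom between 21.3 and 57.5. Each title carries a number of its own, but nothing says that the samples came from separate animals. The p-values describe spread among these samples, which may be technical. Prkca RNA, which the point mutation need not alter and which therefore does not check the genotype, was at 40.3, 56.5 and 46.5 CPM in the wild type sham samples and 62.3, 50.03 and 59.7 CPM after wild type TAC, against 38.1, 50.3 and 44.6 CPM in the T497A sham samples and 52.7, 54.4 and 53.8 CPM after T497A TAC (interaction 0.01 ± 0.18, adjusted p = 0.983). Cardiomyocyte is the labelled cell type, whereas the protocol describes RNA from cardiac tissue. The summed level of 8 ventricular cardiomyocyte markers was 42500 to 65530 CPM (counts scaled to the library total after TMM normalization), that of 9 fibroblast markers 1582 to 2194 CPM and that of 12 endothelial markers 1048 to 1313 CPM, so the samples held RNA of several cell types. In such bulk samples fewer cells of a type and less RNA per cell cannot be told apart. Mitochondrially encoded genes took 25.1% to 29.0% of counts in wild type sham, 19.6% to 20.9% in wild type TAC, 28.3% to 30.9% in T497A sham and 24.6% to 26.1% in T497A TAC. The 9 skeletal muscle markers summed to 38.1 to 56.7 CPM in wild type sham, 89.8 to 114.6 in wild type TAC, 39.4 to 58.9 in T497A sham and 23.7 to 57.9 in T497A TAC. Most of that sum was Myl1, with means of 33.05 ± 6.21 in wild type sham, 84.7 ± 28.1 in wild type TAC, 31.98 ± 4.66 in T497A sham and 34.21 ± 19.6 CPM in T497A TAC (SD, n = 3). The other 8 had lower means after TAC than after sham in T497A, as for Myh4, with means of 4.948 ± 4.76 in wild type sham, 5.676 ± 8.62 in wild type TAC, 7.361 ± 5.73 in T497A sham and 0.3142 ± 0.462 CPM in T497A TAC (SD, n = 3). The part of these markers in the results was not tested.

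At an adjusted p under 0.05 (edgeR quasi-likelihood test, Benjamini-Hochberg adjustment over all genes tested), 248 genes were called for the interaction, 1.57% of those tested. TAC against sham gave 3936 calls in wild type (25%), with 1943 higher (12.3%) and 1993 lower (12.6%), and 18 in T497A (0.114%), with 10 higher (0.0634%) and 8 lower (0.0507%). Every one of the 248 was also called in wild type. The 141 with a higher interaction value (0.894% of genes tested) all fell in wild type, and the 107 with a lower value (0.679%) all rose there. None of the 248 moved further in the wild type direction in T497A than in wild type. The T497A change had the sign of the wild type change in 207 of them and the opposite sign in 41. Their median kept share, the T497A log2 change as a percentage of the wild type one, was 20.9%, with quartiles of 7.46% and 30.0%. Because these genes were called from the same samples, that share is a description and tends to lie lower than in new samples. The interaction is computed from these TAC samples, so a separation of the genotypes after TAC is favoured by the call and is no further evidence. In each of the 248 the 3 T497A TAC samples and the 3 wild type TAC samples did not overlap (28% of all genes tested). Between the genotypes 245 of them were called after TAC (8.7% of genes tested), and none after sham (0.0254%), where 37 had an unadjusted p under 0.05.

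**Figure D1:**
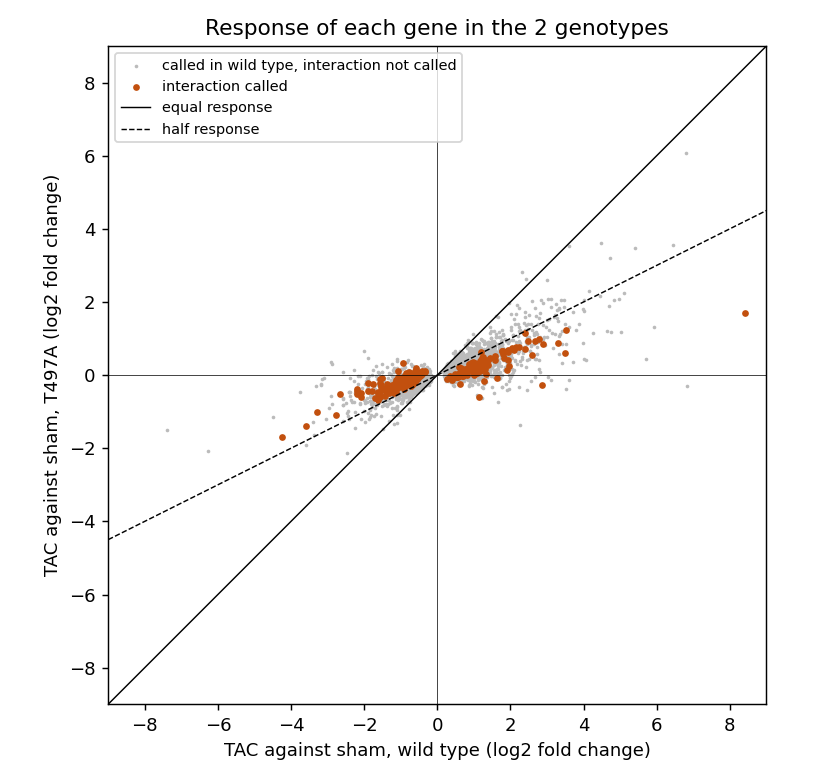
Each point is a gene whose wild type response was called, plotted by its log2 fold change in wild type (x axis) and in T497A (y axis), and orange points are the 248 genes called for the interaction. All orange points lie on the axis side of the solid line of equal response, most of them between the dashed line at 0.5 of that response and the horizontal axis.

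Over all 15764 genes tested, with no selection on either response, the slope of the T497A log2 change on the wild type one was 0.28 and Pearson's r across genes was 0.42. Genes are not independent replicates, and error in the wild type change lowers such a slope. The genes called in wild type were chosen for a large change there, which favours a smaller change in T497A, so their counts are a description. The 1943 genes that rose in wild type kept a median of 31.3% of their log2 change in T497A, and the 1993 that fell kept 30.4%. The sign was shared by 1691 of the genes that rose (87.0%) and 1734 of those that fell (87.0%). Of the risen genes 1916 changed less in T497A than in wild type, as did 1985 of the fallen ones. At an unadjusted p under 0.05 the interaction picked 2647 genes (16.8%), 1402 with a higher value (8.89%) and 1245 with a lower one (7.9%). Among them were 1006 risen and 1123 fallen genes of the wild type response. In none of these was the T497A change larger in the wild type direction.

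The number of calls rested on single samples. Leaving out wild type sham replicate 3 left 40 calls, wild type TAC replicate 3 left 44, T497A TAC replicate 3 left 67, and wild type sham replicate 1, T497A sham replicate 3 and T497A TAC replicate 1 each left 77. Without T497A sham replicate 2 there were 91, without wild type TAC replicate 1 there were 133, and without T497A TAC replicate 2 there were 517. In 11 of the 12 fits with a sample left out no called gene moved further in the wild type direction in T497A. The exception was the fit without T497A sham replicate 1, in which 3 of 230 calls did. Among named genes, Col6a6, Map6, Nupr1, Pamr1, Pdp2, Pla2g5, Sorcs2 and Uchl1 were called in all 19 alternative fits, those with a sample left out included. Others lost their call in some fits, for example Tgfb2 in 13 of the 19, Ryr2 and Myo7a in 12, and Whrn in 11. Aqp4 and Ces1d lost theirs in 9, Kcnip2 in 8, Kcnd2 in 6, Dio2 and Acaa2 in 5 and Lox, Edn3 and Mfap5 in 4, each with the same sign throughout. T497A TAC replicate 2 had the highest fibrillar collagen level of its group.

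**Figure D2:**
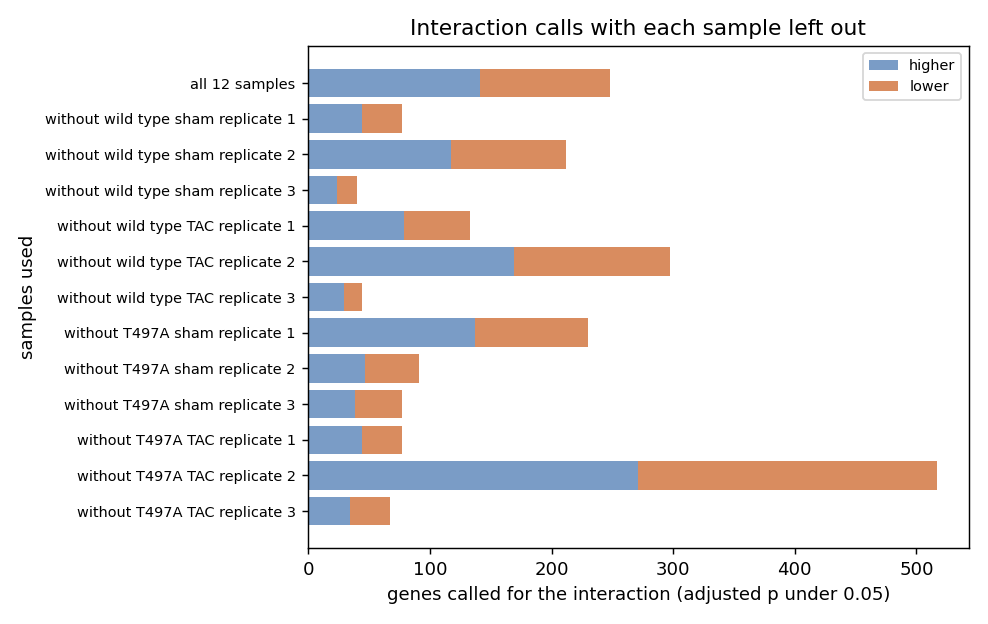
Bars give the number of genes called for the interaction (x axis, adjusted p under 0.05) with all 12 samples and with each sample left out in turn, split into higher and lower interaction values. The bars run from 40 without wild type sham replicate 3 to 517 without T497A TAC replicate 2, against 248 with all samples.

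Among the lowest interaction values were those of Dio2 and Edn3. Dio2, which activates thyroid hormone inside cells, was at 1.59, 2.88 and 2.88 CPM in the wild type sham samples and 22.6, 17.7 and 31.8 CPM after wild type TAC, against 2.04, 3.11 and 1.45 CPM in the T497A sham samples and 3.62, 4.25 and 4.08 CPM after T497A TAC. The T497A TAC samples stood just above their own sham group and far under all wild type TAC samples (log2 change 3.29 ± 0.31 (SE) in wild type and 0.87 ± 0.31 in T497A, interaction -2.43 ± 0.43, adjusted p = 0.0234). Edn3, encoding endothelin 3, was at 2.58, 4.33 and 1.74 (wild type sham), 34.5, 32.5 and 33.5 (wild type TAC), 6.52, 5.93 and 3.83 (T497A sham) and 13.1, 12.9 and 12.4 CPM (T497A TAC). All 3 T497A TAC samples exceeded their sham group and lay under every wild type TAC sample (interaction -2.28 ± 0.36, adjusted p = 0.019). Part of that value came from the sham groups. T497A against wild type differed by 0.89 ± 0.27 on the log2 scale after sham (edgeR, unadjusted p = 0.00701, not called) and by -1.39 ± 0.25 after TAC.

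Lox, the lysyl oxidase that cross-links collagen and elastin, was at 6.26, 5.23 and 5.20 CPM in the wild type sham samples and 36.6, 28.7 and 40.1 CPM after wild type TAC, against 5.92, 5.30 and 4.16 CPM in the T497A sham samples and 10.1, 12.7 and 6.69 CPM after T497A TAC (interaction -1.72 ± 0.30, adjusted p = 0.0213). Its relative Loxl3 had an interaction of -1.39, adjusted p = 0.0158. The collagen lysyl hydroxylases Plod2 and Plod3 rose in wild type by 0.51 and 0.68 on the log2 scale, and their T497A changes were -0.06 and -0.02 (adjusted p of the interaction 0.0341 and 0.0166). Plod3 was at 23.02, 22.5 and 18.4 (wild type sham), 34.4, 33.2 and 34.6 (wild type TAC), 23.6, 24.7 and 24.4 (T497A sham) and 23.5, 23.9 and 24.2 CPM (T497A TAC), so its T497A groups overlapped. Pcolce, which aids removal of the collagen propeptide, had an interaction of -0.99, adjusted p = 0.0407. In all, 5 of the 15 cross-linking and processing genes were called lower for the interaction (0.679% of all genes tested). Of the 15, 13 rose in wild type (12.3% of all genes tested). For such a list the nearer comparison is with the 1943 genes that rose in wild type, of which 107 were called lower. The median log2 change of the 15 was 0.90 in wild type and 0.26 in T497A, against 0.01 in both genotypes over all genes tested.

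Among 7 fibrillar collagens 6 rose in wild type, against 12.3% of all genes tested. Of the 7, 1, Col1a2, was called lower for the interaction (-1.11, adjusted p = 0.0481), against 0.679% of all genes tested. Of the 1943 genes that rose in wild type, 107 were called lower. Col1a2 was at 157, 172 and 153 (wild type sham), 561, 532 and 546 (wild type TAC), 149.6, 201 and 149.6 (T497A sham) and 216, 346 and 227 CPM (T497A TAC). T497A TAC replicate 2 was the highest of its group for Col1a2, as it was for Col1a1 at 158, 252 and 139 CPM and Col3a1 at 296, 541 and 272 CPM. Neither Col1a1 (-1.35, adjusted p = 0.148) nor Col3a1 (-1.26, adjusted p = 0.25) passed the interaction test. The list's median log2 change was 1.82 in wild type and 0.66 in T497A. That kept share of 36.1% became 22.6% without T497A TAC replicate 2 and 55.1% without T497A sham replicate 2. Summed fibroblast markers were 1865 to 2194 CPM in wild type TAC and 1859 to 1990 CPM in T497A TAC. Most of that sum was Gsn and Dcn, with means over all samples of 923 and 624 CPM. Lower markers differed in both directions. Mean Pi16 was 111 CPM in wild type TAC and 45.5 CPM in T497A TAC, and mean Scara5 was 7.70 and 17.05 CPM. For TAC against sham in wild type, 3 of the 9 markers were called higher and 1 lower (12.3% and 12.6% of all genes tested). Their part in the collagen values was not tested.

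Of 20 elastic fibre and glycoprotein matrix genes 18 rose in wild type (12.3% of all genes tested). Called lower for the interaction were 3, against 0.679% of all genes tested and 107 of the 1943 genes that rose in wild type. The 3 were Mfap5, a microfibril protein (-2.05, adjusted p = 0.0213), Efemp2, which guides elastic fibre assembly (-1.05, adjusted p = 0.0319), and Ecm1 (-0.73, adjusted p = 0.0431). Mfap5 was at 8.98, 14.8 and 10.4 (wild type sham), 83.97, 80.9 and 91.4 (wild type TAC), 11.9, 14.4 and 11.3 (T497A sham) and 20.6, 30.8 and 16.5 CPM (T497A TAC). Mgp, the matrix Gla protein that inhibits calcification, was one of the few genes called in both genotypes, with log2 changes of 2.05 ± 0.12 (SE) in wild type and 0.74 ± 0.11 in T497A. Its TAC samples stood at 311, 276 and 284 CPM in wild type and 122, 135 and 119.9 CPM in T497A (interaction -1.31 ± 0.16, adjusted p = 0.00467). In the transforming growth factor beta pathway the ligands Tgfb2 (-1.40, adjusted p = 0.0453) and Tgfb3 (-0.80, adjusted p = 0.0278) and the latency protein Ltbp3 (-0.76, adjusted p = 0.0213) were called. They were 3 of 17 genes, all lower, against 0.679% of all genes tested and 107 of the 1943 genes that rose in wild type. Tgfb2 was at 12.2, 14.01 and 15.4 (wild type sham), 64.7, 41.4 and 71.3 (wild type TAC), 16.6, 19.4 and 16.4 (T497A sham) and 24.2, 35.9 and 24.4 CPM (T497A TAC).

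Map6, Uchl1 and Nuak1 were also among the blunted rises. Map6, which stabilizes microtubules, was at 3.32, 3.55 and 3.37 (wild type sham), 9.64, 11.02 and 10.9 (wild type TAC), 4.45, 3.85 and 4.11 (T497A sham) and 4.62, 3.29 and 3.78 CPM (T497A TAC). The wild type TAC samples stood alone, and the other 9 samples lay between 3.29 and 4.62 CPM (interaction -1.71 ± 0.21, adjusted p = 0.00467). Uchl1, a ubiquitin hydrolase, was at 5.03, 6.97 and 5.14 (wild type sham), 20.4, 22.98 and 23.8 (wild type TAC), 6.52, 6.88 and 7.68 (T497A sham) and 6.67, 9.13 and 9.29 CPM (T497A TAC) (interaction -1.72 ± 0.22, adjusted p = 0.00467). Nuak1, an AMPK-related kinase, was at 38.6, 43.6 and 41.7 (wild type sham), 97.9, 97.6 and 109 (wild type TAC), 55.02, 42.1 and 41.5 (T497A sham) and 56.7, 48.8 and 51.5 CPM (T497A TAC) (interaction -1.12 ± 0.15, adjusted p = 0.00545). Among 15 tubulin and microtubule genes 9 rose and 1 fell in wild type (12.3% and 12.6% of all genes tested). None was called in T497A (0.114% of all genes tested). Map6 alone was called for the interaction, lower, against 0.679% of all genes tested and 107 of the 1943 genes that rose in wild type. The list medians were 0.63 in wild type and 0.12 in T497A.

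The strain-responsive Z-disc genes had a wild type median of 0.62 and a T497A median of 0.07 on the log2 scale. Of the 19 members 12 rose in wild type (12.3% of all genes tested). For the interaction 2 were called lower, against 0.679% of all genes tested and 107 of the 1943 genes that rose in wild type. These were Flnc, encoding the actin cross-linker filamin C, at 433, 434 and 370.5 (wild type sham), 836, 595 and 810.3 (wild type TAC), 425, 418 and 433 (T497A sham) and 487, 506 and 474 CPM (T497A TAC) (interaction -0.66 ± 0.15, adjusted p = 0.0481), and Xirp1, encoding a protein of the intercalated disc, at 274, 317 and 257 (wild type sham), 440.3, 356 and 506 (wild type TAC), 361, 297 and 288 (T497A sham) and 292, 258 and 246 CPM (T497A TAC) (interaction -0.87 ± 0.18, adjusted p = 0.0412). Xirp1 levels in T497A TAC lay within or below the T497A sham range. Ankrd1, a stretch-responsive titin partner, did not pass (-0.92, adjusted p = 0.341), its T497A TAC samples standing at 2843, 3674 and 2714 CPM between sham and wild type TAC.

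Cell cycle genes rose in wild type in 18 of 28 cases and fell in 1 (12.3% and 12.6% of all genes tested). Their list medians were 1.12 in wild type and 0.18 in T497A. For the interaction 1 of the 28 was called, with a lower value, against 0.679% of all genes tested. Of the 1943 genes that rose in wild type, 107 were called lower. Ccnb1, the mitotic cyclin B1, was the 1 gene of the list called for the interaction (interaction -3.12 ± 0.57, adjusted p = 0.0205), at 0.323, 0.134 and 0.290 (wild type sham), 1.58, 1.85 and 2.00 (wild type TAC), 0.547, 0.555 and 0.968 (T497A sham) and 0.357, 0.725 and 0.649 CPM (T497A TAC). These are low levels, with 6 to 14 counts per wild type sham sample, and T497A sham lay above wild type sham. Cdk1, its kinase partner, missed the threshold (-1.61, adjusted p = 0.0547). The list score of the T497A TAC samples ranged widely, at -0.54, 0.60 and 0.12 log2 units from their sham mean, against 0.83, 1.08 and 1.01 in wild type TAC. Macrophage marker scores were 0.01, 0.63 and 0.24 in T497A TAC, where the lowest and highest samples were those of the cell cycle score. They were 1.01, 0.63 and 0.67 in wild type TAC, where the order of the samples was the reverse. Of 19 macrophage markers 13 rose in wild type (12.3% of all genes tested), with none called for the interaction (1.57%). The part of the macrophage markers in the cell cycle values was not tested.

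**Figure D3:**
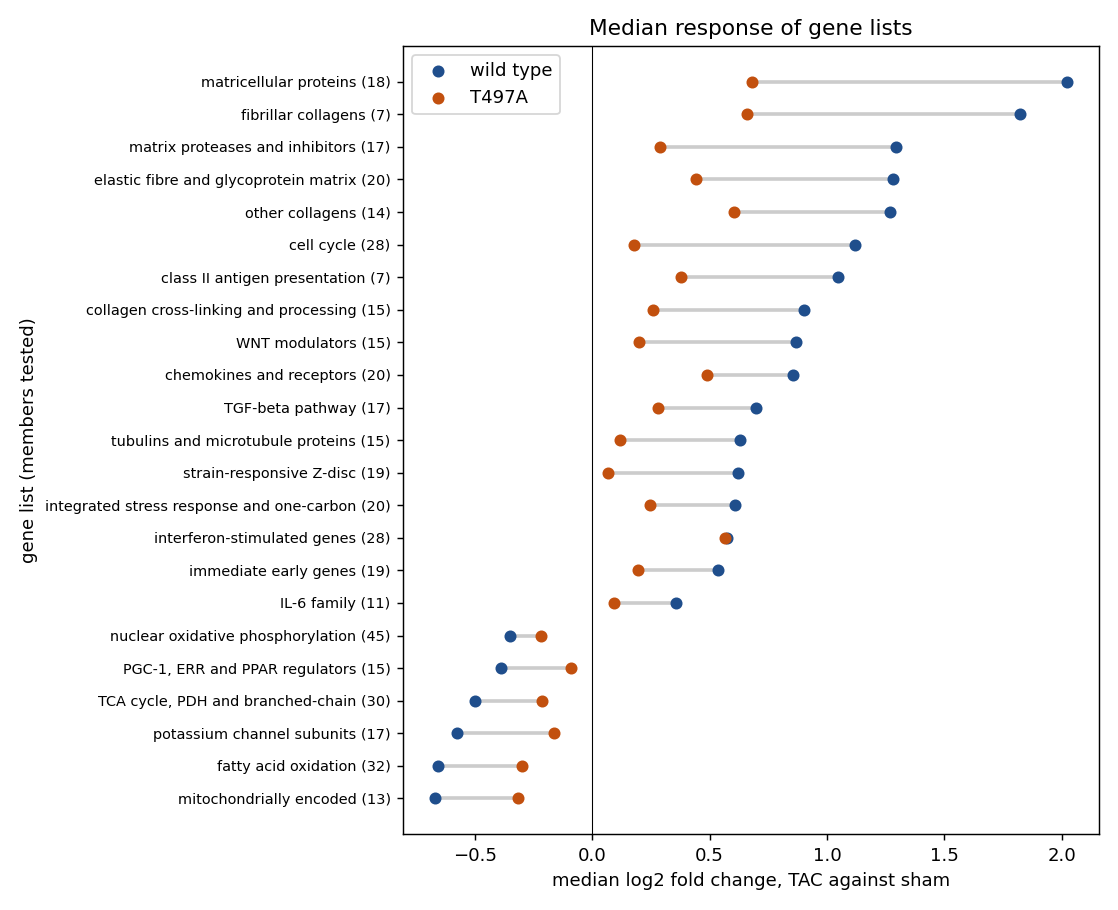
Points give the median log2 fold change of TAC against sham (x axis) for each gene list (y axis, members tested in parentheses) in wild type (blue) and T497A (orange), for lists of at least 7 tested genes with a wild type median of at least 0.3 in size. The T497A point lies nearer to zero in every list shown, and the 2 points nearly coincide for interferon-stimulated genes, at 0.57 in both genotypes.

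Among genes that fell in wild type, the list with the most interaction calls was one of mitochondrial fuel use. All but 1 of 30 genes of the TCA cycle, pyruvate dehydrogenase and branched-chain catabolism fell in wild type (12.6% of all genes tested). Of the 30, 6 were called higher for the interaction (0.894% of all genes tested). The nearer comparison is with the 1993 genes that fell in wild type, of which 141 were called higher. Ppm1k, a phosphatase that switches on branched-chain ketoacid breakdown, was at 223, 208 and 225 CPM in the wild type sham samples and 76.1, 89.7 and 83.01 CPM after wild type TAC, against 222, 194 and 203 CPM in the T497A sham samples and 148, 128 and 177 CPM after T497A TAC (interaction 0.95 ± 0.15, adjusted p = 0.0108). Dbt and Bckdhb, subunits of the dehydrogenase it acts on, had interactions of 0.78, adjusted p = 0.0199 and 0.72, adjusted p = 0.0391. Pcca, a propionyl-CoA carboxylase subunit (0.53, adjusted p = 0.0481), and the succinate-CoA ligase subunits Suclg2 (0.50, adjusted p = 0.0281) and Sucla2 (0.43, adjusted p = 0.0495) were the others. The list medians were -0.50 in wild type and -0.21 in T497A. Pdp2, a phosphatase that activates pyruvate dehydrogenase and not a member of that list, was at 60.2, 60.4 and 61.4 (wild type sham), 23.6, 23.5 and 15.3 (wild type TAC), 55.1, 57.2 and 55.2 (T497A sham) and 51.5, 47.7 and 39.7 CPM (T497A TAC). Its T497A TAC samples lay just under the T497A sham range and above every wild type TAC sample (interaction 1.27 ± 0.20, adjusted p = 0.0127).

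In fatty acid oxidation 27 of 32 genes fell in wild type (12.6% of all genes tested). Called higher for the interaction were 4, against 0.894% of all genes tested and 141 of the 1993 genes that fell in wild type. Acaa2, the last enzyme of the mitochondrial spiral, was at 714, 704 and 629 (wild type sham), 309, 323 and 271 (wild type TAC), 605, 669.6 and 729 (T497A sham) and 516, 436 and 473 CPM (T497A TAC) (log2 change -1.18 ± 0.09 (SE) in wild type and -0.49 ± 0.09 in T497A, interaction 0.69 ± 0.13, adjusted p = 0.0234). The T497A TAC samples formed a middle level that overlapped neither their sham group nor wild type TAC. Acsl1, which activates long-chain fatty acids (0.51, adjusted p = 0.0246), Acadm, the medium-chain dehydrogenase (0.44, adjusted p = 0.0473), and Etfa, an electron transfer flavoprotein subunit (0.48, adjusted p = 0.0395), followed. Of their regulators 7 of 15 fell in wild type (12.6% of all genes tested). The orphan receptor gene Esrrg was called for the interaction (0.46, adjusted p = 0.0395), at 86.7, 85.8 and 90.2 (wild type sham), 62.1, 66.2 and 63.9 (wild type TAC), 95.2, 79.7 and 84.7 (T497A sham) and 89.4, 84.6 and 87.2 CPM (T497A TAC). Ppargc1a, the coactivator, did not pass in wild type or in the interaction (0.36, adjusted p = 0.571). Respiratory chain subunits encoded in the nucleus fell in 43 of 45 cases in wild type (12.6% of all genes tested) with small changes. None of the 45 was called for the interaction by edgeR (1.57% of all genes tested). An unadjusted p under 0.05 was seen in 15 (16.8% of all genes tested). The nearer comparison is with the 1993 genes that fell in wild type, of which 1123 had such a p. The medians of the 45 were -0.35 in wild type and -0.22 in T497A.

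Of 17 potassium channel genes 11 fell in wild type, against 12.6% of all genes tested. For the interaction 3 were called with a higher value, against 0.894% of all genes tested and 141 of the 1993 genes that fell in wild type. Kcnd2, a pore subunit of the fast transient outward current, was at 37.8, 37.9 and 43.4 (wild type sham), 11.9, 16.8 and 11.5 (wild type TAC), 51.1, 36.8 and 40.7 (T497A sham) and 32.04, 31.7 and 30.3 CPM (T497A TAC) (interaction 1.12 ± 0.20, adjusted p = 0.0228). Kcnip2, its accessory subunit, was at 188, 151 and 164 (wild type sham), 71.9, 90.4 and 74.2 (wild type TAC), 181, 138 and 159 (T497A sham) and 118, 129 and 154 CPM (T497A TAC) (interaction 0.84 ± 0.18, adjusted p = 0.0452). Abcc9, the sulphonylurea receptor of the ATP-sensitive channel, was at 740.1, 579 and 718 (wild type sham), 342, 323 and 326 (wild type TAC), 623, 569 and 616 (T497A sham) and 582, 483 and 622 CPM (T497A TAC) (interaction 0.94 ± 0.14, adjusted p = 0.0108). In each of the 3 genes the wild type TAC samples were below all others. Of 20 calcium cycling genes 8 fell and 3 rose in wild type (12.6% and 12.3% of all genes tested). None was called in T497A (0.114% of all genes tested). For the interaction 2 were called, both higher, against 0.894% of all genes tested and 141 of the 1993 genes that fell in wild type. The list medians were -0.29 in wild type and -0.10 in T497A. Ryr2, the calcium release channel, was at 3368, 3110 and 3058 (wild type sham), 1704, 1672 and 1882 (wild type TAC), 3349, 2382 and 2470 (T497A sham) and 2916, 2297 and 2556 CPM (T497A TAC) (interaction 0.78 ± 0.17, adjusted p = 0.0432), so that the T497A sham and TAC ranges overlapped. Hrc, a calcium-binding protein of the sarcoplasmic reticulum, was the other gene called (0.57, adjusted p = 0.0261), and Atp2a2, the calcium pump, was not (0.50, adjusted p = 0.0734).

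High interaction values among genes with a mean of at least 5 CPM included those of Ces1d, a carboxylesterase (interaction 2.29 ± 0.42, adjusted p = 0.0395), and Aqp4, a water channel (interaction 2.22 ± 0.46, adjusted p = 0.0412). Col6a6, a collagen VI chain, went against the other collagens. It fell in wild type and was at 20.8, 14.99 and 15.7 (wild type sham), 4.43, 4.00 and 2.84 (wild type TAC), 16.2, 16.9 and 15.8 (T497A sham) and 12.6, 11.9 and 13.4 CPM (T497A TAC) (interaction 1.82 ± 0.22, adjusted p = 0.00467). Pla2g5, a secreted phospholipase, was at 34.2, 32.8 and 42.02 (wild type sham), 9.60, 12.1 and 10.2 (wild type TAC), 35.7, 36.9 and 30.4 (T497A sham) and 25.4, 25.8 and 24.3 CPM (T497A TAC) (interaction 1.32 ± 0.16, adjusted p = 0.00467). Nupr1, a stress-induced chromatin protein, rose in both genotypes and stood at 2.17, 1.97 and 1.80 (wild type sham), 10.5, 11.3 and 11.2 (wild type TAC), 2.29, 2.44 and 2.29 (T497A sham) and 4.02, 4.93 and 4.54 CPM (T497A TAC) (interaction -1.52 ± 0.20, adjusted p = 0.00467), while Aldh1l2, a mitochondrial folate enzyme, fell in wild type (interaction 1.68 ± 0.32, adjusted p = 0.0249).

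**Figure D4:**
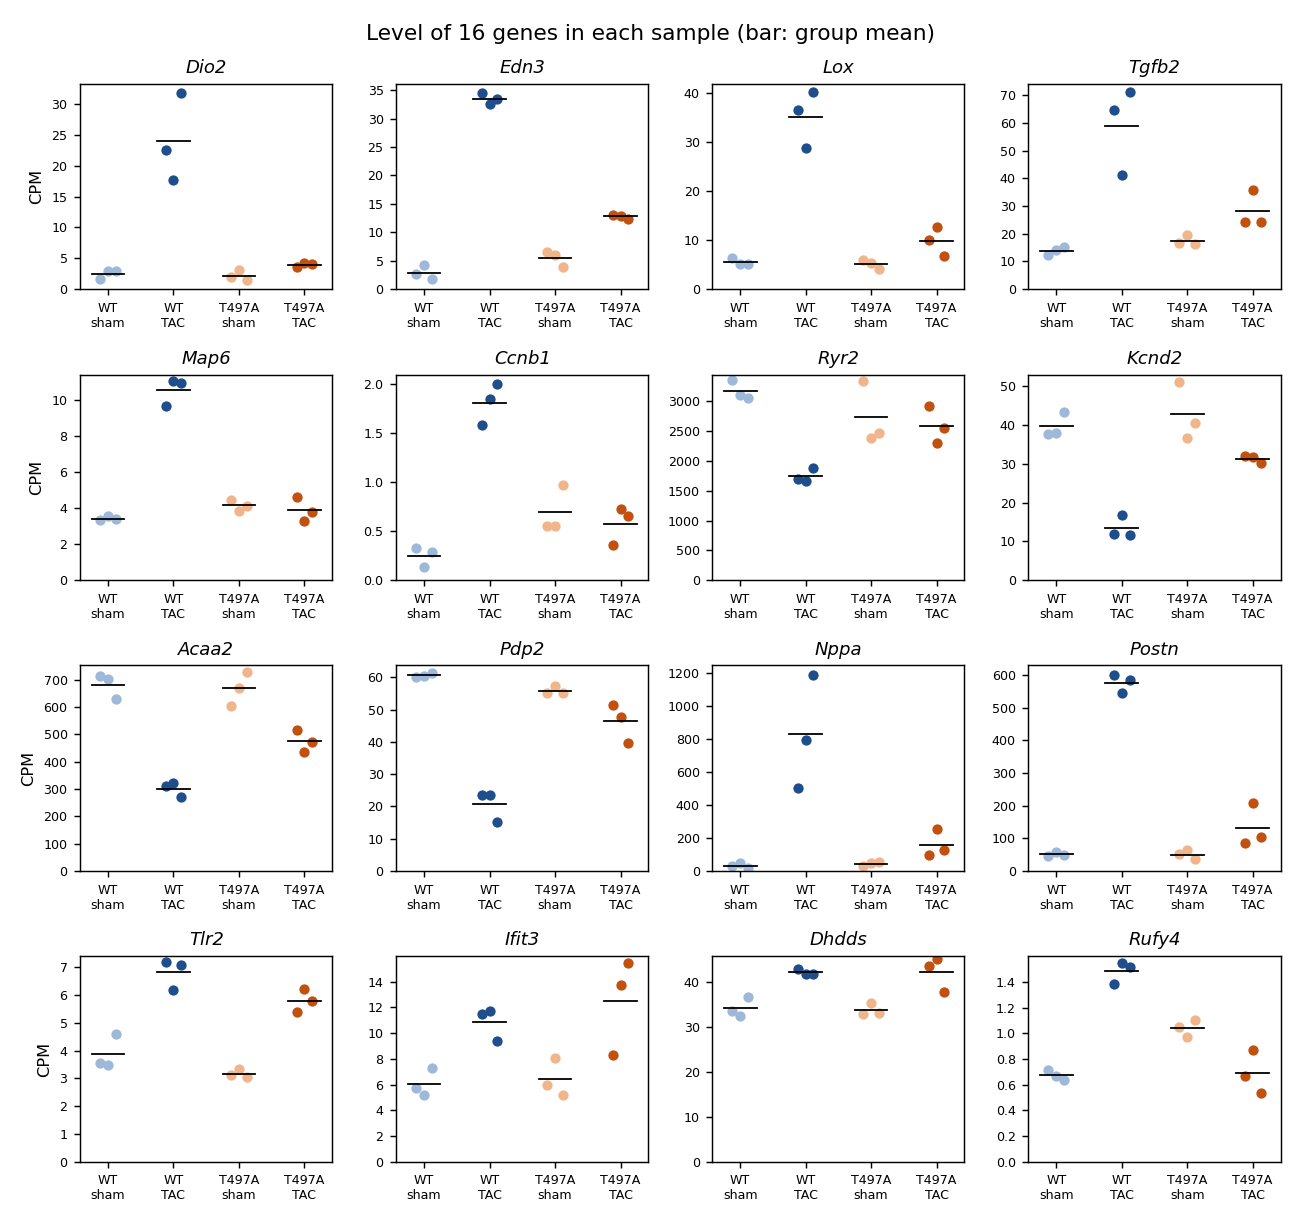
Each panel plots the level of 1 gene in every sample (y axis, CPM) for the 4 groups (x axis), with points for samples and a bar for the group mean. The wild type TAC samples stand apart from the T497A TAC samples in the panels from Dio2 to Postn, the TAC groups overlap for Tlr2, Ifit3 and Dhdds, and Rufy4 moved in opposite directions.

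Several markers of overload with large differences did not pass the interaction test. Nppa, atrial natriuretic peptide, was at 28.6, 48.3 and 18.9 (wild type sham), 500.1, 793 and 1187 (wild type TAC), 27.4, 48.9 and 51.7 (T497A sham) and 97.1, 252 and 124 CPM (T497A TAC). No T497A TAC sample reached the lowest wild type TAC sample, and the interaction was -2.80 with a 95% interval of -4.47 to -1.14 (adjusted p = 0.0989). Nppb, its relative, was at 30.2, 160 and 49.2 (wild type sham), 408, 294 and 525 (wild type TAC), 59.8, 128 and 114 (T497A sham) and 144, 193 and 175 CPM (T497A TAC), with wild type sham replicate 2 far above the other 2 (-1.59, adjusted p = 0.384). For Myh7, the slow myosin heavy chain (-1.11, adjusted p = 0.588), and Acta1, skeletal alpha-actin (-1.998, adjusted p = 0.302), the T497A TAC samples were 456, 772 and 1218 CPM and 1001, 1871 and 671 CPM, against 2493, 2380 and 2932 and 4299, 2105 and 2819 CPM in wild type TAC. Postn, the matricellular protein periostin, was at 44.2, 58.5 and 49.95 (wild type sham), 602, 546 and 584 (wild type TAC), 51.04, 62.8 and 37.04 (T497A sham) and 86.6, 208 and 104 CPM (T497A TAC) (-2.10, adjusted p = 0.0606). Nox4, a hydrogen peroxide-producing oxidase, lay at the threshold (-1.53, adjusted p = 0.0502).

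No gene was shown to keep its full response. When the T497A response was tested against 0.5 of the wild type response, no gene passed in either direction by edgeR (smallest adjusted p = 0.885). With DESeq2 1 gene passed below that mark. With limma-voom 0 passed. At an unadjusted p under 0.05, 872 of all 15764 genes tested departed from that mark in either direction, a number that includes departures due to chance. Among the genes called in wild type, 427 lay below the mark and 7 above it at that p. Selection for a large wild type change favours the lower side. Among the 10 genes with a mean of at least 5 CPM and the smallest p for a response above that mark, none of which passed the adjusted test, was Dhdds, an enzyme of dolichol synthesis, at 33.7, 32.5 and 36.8 (wild type sham), 42.9, 41.9 and 41.95 (wild type TAC), 32.9, 35.4 and 33.1 (T497A sham) and 43.7, 45.2 and 37.8 CPM (T497A TAC). Its TAC samples overlapped between genotypes (interaction 0.02 ± 0.11, adjusted p = 0.952). The others included Pcp4l1 (-0.16, adjusted p = 0.809), Apobec3 (0.19, adjusted p = 0.744), Dock10 (0.15, adjusted p = 0.776), Abhd18 (0.01, adjusted p = 0.987) and Gpx8 (0.03, adjusted p = 0.928). A kept share of 80% or more was seen in 81 of 1943 risen genes and 52 of 1993 fallen ones. The 18 genes called in T497A, which that call selects for a larger T497A change, kept a median of 57.3% (36.0% to 106.3%), and 6 of them were called for the interaction. Tlr2, a receptor of bacterial lipoproteins, was at 3.56, 3.48 and 4.59 (wild type sham), 7.19, 6.19 and 7.08 (wild type TAC), 3.13, 3.33 and 3.06 (T497A sham) and 5.40, 6.21 and 5.79 CPM (T497A TAC), with log2 changes of 0.82 ± 0.15 (SE) in wild type and 0.87 ± 0.15 in T497A. Ctss, the lysosomal protease cathepsin S, changed by 1.05 ± 0.15 (SE) in wild type and 0.87 ± 0.15 in T497A, and Slc27a1, a fatty acid transporter, by -0.88 ± 0.09 (SE) in wild type and -0.61 ± 0.09 in T497A. The calls in T497A themselves numbered 0 without wild type sham replicate 3, wild type TAC replicate 1 or 3, T497A sham replicate 2 or 3, or T497A TAC replicate 2, and 36 without wild type TAC replicate 2 or T497A TAC replicate 1.

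Interferon-stimulated genes had the kept share nearest to a full response of the lists with a wild type median of at least 0.3. Their median log2 change was 0.57 in wild type and 0.57 in T497A. Of 28 genes 12 rose in wild type (12.3% of all genes tested) and none was called in T497A (0.114%). None had an interaction with an unadjusted p under 0.05 (16.8% of all genes tested). Ifit3, an antiviral protein induced by interferon, was at 5.72, 5.21 and 7.32 (wild type sham), 11.5, 11.7 and 9.39 (wild type TAC), 5.97, 8.04 and 5.21 (T497A sham) and 8.32, 13.8 and 15.5 CPM (T497A TAC) (interaction 0.13 ± 0.32, adjusted p = 0.884, 95% interval -0.56 to 0.82). Irf7, the transcription factor of the interferon loop, had an interaction of -0.34, adjusted p = 0.652. The T497A samples differed among themselves: the list score was 0.14, 0.73 and 0.85 log2 units above the sham mean, and T497A sham replicate 2 was 0.38 above it, whereas the wild type TAC samples were at 0.72, 0.56 and 0.50. The kept share of 98.6% was 61.01% without T497A TAC replicate 3 and 146% without T497A sham replicate 2, so a full response and a partial one cannot be told apart at this sample size.

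**Figure D5:**
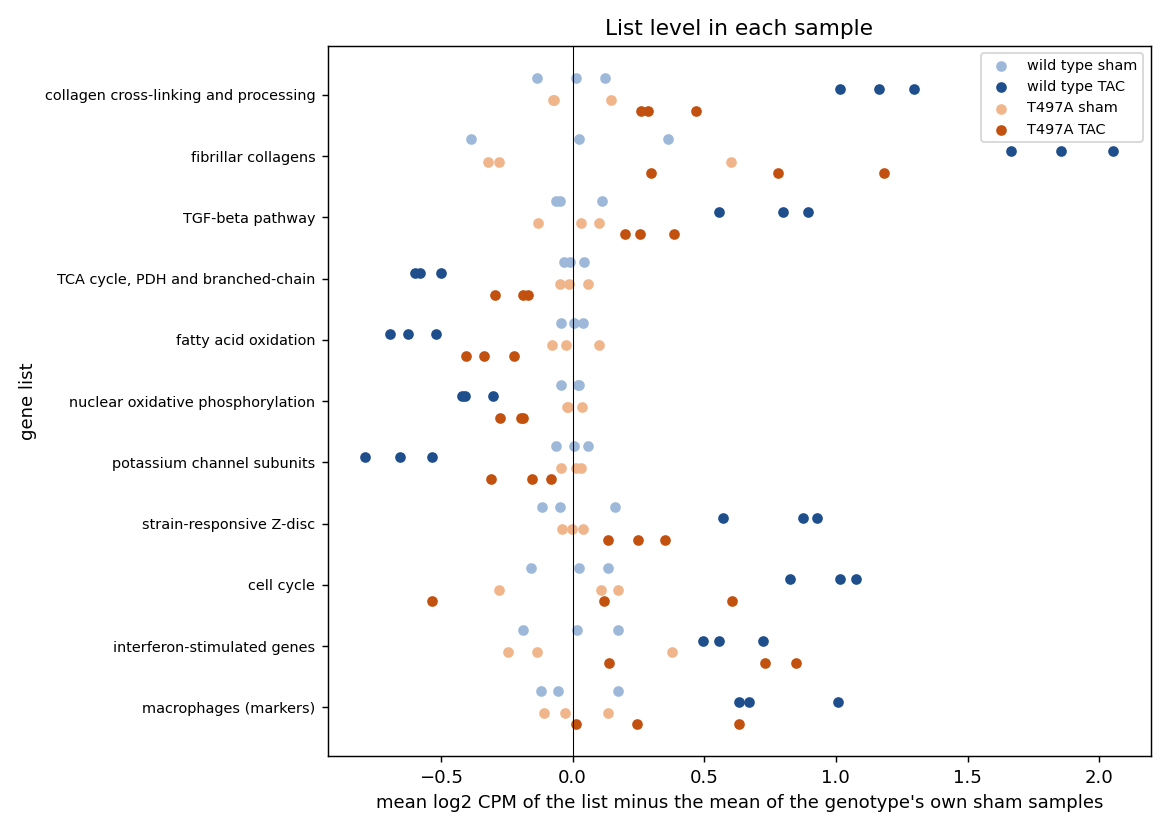
Each point is a sample, placed by the mean log2 CPM of a gene list minus the mean of its own genotype's sham samples (x axis), for 11 lists (y axis) and 4 groups. The T497A TAC points lie between zero and the wild type TAC points for the matrix, mitochondrial and potassium channel lists, and scatter from 0.14 to 0.85 for interferon-stimulated genes.

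Reversal was rare. Among 1298 genes with an unadjusted p under 0.05 in both TAC comparisons, 1284 changed in the same direction and 14 in opposite directions. Of the 14, Rufy4, encoding a RUN and FYVE domain protein, was called for the interaction (interaction -1.72 ± 0.38, adjusted p = 0.0424), at 0.716, 0.670 and 0.639 (wild type sham), 1.38, 1.55 and 1.51 (wild type TAC), 1.04, 0.971 and 1.10 (T497A sham) and 0.669, 0.870 and 0.533 CPM (T497A TAC). Its mean level was 0.971 CPM, the T497A change was not called, and it was named after its values were seen. All T497A sham samples, at 35 to 50 counts, lay above all wild type sham samples. That sham difference was 0.62 ± 0.27 on the log2 scale (edgeR, unadjusted p = 0.0378, not called) and enters the interaction. Ric1, part of a Rab exchange factor of the Golgi, had the smallest interaction p of the reversed genes above 1 CPM, at 33.96, 32.4 and 32.4 (wild type sham), 29.1, 26.4 and 28.6 (wild type TAC), 31.5, 31.8 and 30.9 (T497A sham) and 36.3, 35.7 and 33.8 CPM (T497A TAC) (interaction 0.40 ± 0.10, adjusted p = 0.0548). Slc12a2, the sodium-potassium-chloride cotransporter, was at 51.7, 51.6 and 56.8 (wild type sham), 48.5, 38.1 and 43.2 (wild type TAC), 45.96, 51.7 and 47.7 (T497A sham) and 56.3, 54.9 and 55.9 CPM (T497A TAC) (0.50, adjusted p = 0.0573). Atg14 (0.66, adjusted p = 0.0765) and Pik3c3 (0.50, adjusted p = 0.0843), subunits of the lipid kinase complex that starts autophagosomes, were both among the 10 reversed genes so chosen, and none of the 10 passed. The 41 called genes with opposite signs included Map6 (T497A change -0.09 ± 0.15) and Bcl2l11, a pro-apoptotic protein (0.12 ± 0.17). In both the T497A sham and TAC samples overlapped (edgeR, unadjusted p = 0.556 and 0.487), so neither was shown to reverse. For Bcl2l11 the sham groups differed by -0.46 ± 0.17, T497A against wild type (edgeR, unadjusted p = 0.0161, not called), which enters its interaction. A further 539 genes had an unadjusted p under 0.05 in T497A and not in wild type, and 108 of them had an unadjusted interaction p under 0.05. None of the 539 was called for the interaction. That follows from all 248 calls being called in wild type and is no further evidence.

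Start-site sequences were examined for the 248 genes called for the interaction. Those with a lower value are named blunted rises and those with a higher value blunted falls. Whether these genes are regulated together was not tested. The 250 bases upstream of the first RefSeq start site of each gene (GRCm38.p6) were matched for 191 of the 248, 81 blunted rises and 110 blunted falls, and searched on both strands. The MCAT element CATTCC, the binding sequence of TEAD factors, was found in 14 of 81 blunted rises (17.3%) and 17 of 110 blunted falls (15.5%), against 12.63% of all 27025 promoters. The AP-1 sequence TGANTCA was found in 4 of 81 and 4 of 110 (6.87% of all), the estrogen-related receptor sequence TCAAGGTCA in 0 and 2 (0.37% of all), and the MEF2 motif in 1 and 6 (3.01% of all). These matches are descriptions, not sites shown to be bound. The sequences of Dio2 and Pmp22, a blunted rise (-0.85, adjusted p = 0.00831), and of Abcc9 and Esrrg, blunted falls, are shown because each holds an MCAT element, with Esrrg also holding an AP-1 and a MEF2 match. They read 5′ to 3′ on the gene's strand, with motif matches in capitals.
Dio2, chr12:90739039-90739288, minus strand: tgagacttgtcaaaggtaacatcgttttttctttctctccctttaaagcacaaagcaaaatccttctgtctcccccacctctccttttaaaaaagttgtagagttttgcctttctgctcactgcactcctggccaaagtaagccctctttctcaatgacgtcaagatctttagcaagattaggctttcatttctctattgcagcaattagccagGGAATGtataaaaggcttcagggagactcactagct
Pmp22, chr11:63128732-63128981, plus strand: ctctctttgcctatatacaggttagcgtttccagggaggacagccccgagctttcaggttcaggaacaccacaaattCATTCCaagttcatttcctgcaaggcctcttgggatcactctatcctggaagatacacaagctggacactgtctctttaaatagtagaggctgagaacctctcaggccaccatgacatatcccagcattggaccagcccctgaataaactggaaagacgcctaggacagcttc
Abcc9, chr6:142702275-142702524, minus strand: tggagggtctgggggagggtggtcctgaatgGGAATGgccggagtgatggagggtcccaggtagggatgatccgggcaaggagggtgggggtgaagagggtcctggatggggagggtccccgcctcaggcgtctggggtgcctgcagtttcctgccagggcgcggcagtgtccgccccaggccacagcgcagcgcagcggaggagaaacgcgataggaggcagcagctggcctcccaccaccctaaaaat
Esrrg, chr1:187608756-187609005, plus strand: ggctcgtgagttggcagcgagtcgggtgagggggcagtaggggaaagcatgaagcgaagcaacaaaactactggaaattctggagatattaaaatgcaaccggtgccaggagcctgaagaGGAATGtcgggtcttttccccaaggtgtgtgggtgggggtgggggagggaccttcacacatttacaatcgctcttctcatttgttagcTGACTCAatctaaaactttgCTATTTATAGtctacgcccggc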

How the data were processed

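RNA was taken from left ventricle and sequenced as single reads from mRNA libraries, per the labels' protocols. The submitters' processing notes name Trim Galore 0.6.4, STAR 2.7.3a, featureCounts of Subread 1.6.3, limma 3.50.3 and the mm10 build. The authors deposited raw counts per gene, and the sources used here give no strand or multi-mapping setting, so overlapping genes and near-identical copies are uncertain.

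Groups came from the labels, with 3 samples each. Genes were filtered with edgeR's filterByExpr (4.0.16, minimum count 10), normalized by TMM and fitted in 1 quasi-likelihood model over the 4 groups, with contrasts for TAC in each genotype, for their difference and for the T497A response minus 0.5 of the wild type response. Standard errors are the log2 change over the square root of F. CPM used TMM-scaled totals. List scores are mean log2 CPM with a prior count of 2. Kept shares are given for lists with a wild type median of at least 0.3 in size. The script was tested on simulated data.

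The 60 gene lists and the members named were chosen with earlier results of these data known. Named were, where mean CPM reached 5, the 15 lowest and 15 highest called interaction values, genes nearest to a kept response, reversed genes above a mean CPM of 1, a set of 24 cardiac genes and the leading members of each list. Genes with the smallest interaction p, those called in T497A and Pmp22 were named after their values were seen. A gene that these rules select is not reported here. Alternatives were DESeq2 1.42.0, limma-voom 3.58.1, size factors of DESeq2's kind (RLE), 2 other filters, omission of mitochondrially encoded genes, 1 surrogate variable (sva 3.50.0) and omission of each sample.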

Additional observations from a re-analysis of the deposited data

Results flagged for a closer look

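The response to TAC differed between the genotypes, by the test of the difference itself, in 248 genes, all of them smaller in T497A or of opposite sign. Rufy4 was the 1 called gene with an unadjusted p under 0.05 in both genotypes and opposite directions (interaction -1.72 ± 0.38, adjusted p = 0.0424), at 0.716, 0.670 and 0.639 (wild type sham), 1.38, 1.55 and 1.51 (wild type TAC), 1.04, 0.971 and 1.10 (T497A sham) and 0.669, 0.870 and 0.533 CPM (T497A TAC). The interaction of Rufy4 was not called in 13 of 18 alternatives, with adjusted p from 0.00441 to 0.103. Part of it is a sham difference, T497A sham lying above wild type sham by 0.62 ± 0.27 on the log2 scale (edgeR, unadjusted p = 0.0378, not called).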

How the results depend on the processing

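With a sample left out the interaction count ranged from 40 to 517, and it was 847 with DESeq2 and 898 without a low-count filter. It was 183 with limma-voom, 246 with RLE factors, 279 with a mean CPM of at least 1, 253 without mitochondrially encoded genes and 168 with 1 surrogate variable. Of the 248 genes, 247 were still called with DESeq2 and 175 with limma-voom. The TAC count in wild type ranged from 2766 to 3983 with a sample left out. In T497A it was 296 with DESeq2, 0 with limma-voom, 331 without a filter and 1 with a surrogate variable, and 0 to 36 with a sample left out. Genes called below 0.5 of the wild type response numbered 1 with DESeq2 and 6 without a filter, and genes called above it numbered 1 without a filter and 0 to 2 with a sample left out. The cause of these differences was not tested. The share of higher among called genes was 56.9%, and 49.4% to 65.9% over the alternatives.

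Of the named genes' interaction values, 20 changed sign, all in genes with no interaction call. With a sample left out the values of these genes ran as follows: Pcp4l1 from -0.3691 to 0.0473, Dock10 from -0.0223 to 0.256, Ifit3 from -0.0526 to 0.3569, Gm33609 from -0.25 to 0.2104, Dhdds from -0.0309 to 0.094, Abhd18 from -0.086 to 0.0871, Gpx8 from -0.0403 to 0.0875, Prkca from -0.1259 to 0.1229. With 1 surrogate variable Abhd18 was at -0.011. Among other values, 185 lost and 49 gained a call in the same direction. No paired analysis was possible because all titles carry the same replicate number.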

Other observations

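Atrial cardiomyocyte markers, 5 genes, had median log2 changes of -0.55 in wild type and -0.97 in T497A. That kept share of 175.5% was 70.7% without T497A sham replicate 3 and 336% without wild type TAC replicate 1. In wild type 1 was higher, Dkk3, and 1 lower, Stard10 (12.3% and 12.6% of all genes tested). Myl4, Myl7 and Sln were called in neither genotype, and none of the 5 was called for the interaction (1.57% of all genes tested). Lymphocyte markers, 12 genes, had medians of 0.78 in wild type and 0.51 in T497A, and 1 rose in wild type (12.3% of all genes tested). The integrated stress response and one-carbon list of 20 genes had 7 higher and 1 lower in wild type (12.3% and 12.6% of all genes tested). In T497A 2 were higher (0.0634%), and the medians were 0.61 in wild type and 0.25 in T497A. Mthfd2, a mitochondrial folate enzyme of that list, changed by 1.47 ± 0.17 (SE) in wild type and 1.02 ± 0.17 in T497A (interaction -0.44 ± 0.24, adjusted p = 0.382). Circadian clock genes gave no call in either genotype by edgeR among 16 (25% of all genes tested in wild type, 0.114% in T497A). None of them had an unadjusted interaction p under 0.05 (16.8% of all genes tested).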
